A study of Saccharomyces cerevisiae with 6 samples.

Results

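Aminoacyl-tRNA synthetases attach each amino acid to its tRNA, the step that supplies charged tRNA to the ribosome. Budding yeast makes proteins both in the cytosol and inside mitochondria, and for most amino acids it keeps a nuclear gene for the cytosolic enzyme and another for the mitochondrial one. A few genes serve both compartments, for example by starting translation at alternative sites, and are called dual here. The set described is these enzymes together with ARC1, a cofactor that binds tRNA and the methionyl and glutamyl enzymes. The members were taken by gene name and not by a threshold on their values. Of 37 genes listed, 36 have a row in the table of 6400 genes, 22 in the cytosolic or dual set (ARC1 included) and 14 in the mitochondrial set, and all 36 passed the filter on low counts that left 6129 tested genes. YDR341C, the cytosolic arginyl enzyme, has no row of that name. RRS1 is a synonym of it and also the symbol of another gene, YOR294W, so the row named RRS1 could not be assigned, and YDR341C was not analysed here.

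The samples are 3 cultures of the evolved strain CX01F and 3 of the parental strain CX01, which the study compared to ask how cells rearrange metabolism to grow on methanol. Both strains carry the same genotype label. It names Paox1-SKL and Pdas1-skl, then pDAK, and further mMDH3-skl with mACT1-skl, pPYC, and the xylose genes sXR, sXDH and sXK. It also names PEX5, the deletions ∆PEX31 and ∆PEX32, and the yeast genes MDH2, cMDH3 and Cnde1. Cells of both strains went from YPD, a rich medium, through 16 h in Delft medium, a minimal medium, to Delft medium with 1% methanol as the carbon source, at 30 °C and 200 rpm, and were collected near an OD600 of 1.0. Whether CX01F is a single clone is not given in the sources used here. Total counts ranged from 52849030 to 62826253 in CX01F and from 51537969 to 63183824 in CX01. Counts for PEX31 were 0 or 1 in CX01F and 0 in CX01, whereas those for PEX32, the other labelled deletion, were 167 to 230 in CX01F and 219 to 279 in CX01. The row MDH2 had 340950 to 406674 counts in CX01F and 20962 to 26450 in CX01. NDE1 had 123190 to 142012 in CX01F and 69428 to 88784 in CX01. For MDH3 the counts were 20641 to 25478 in CX01F and 18876 to 22458 in CX01, and for PEX5 6428 to 7705 and 8467 to 10746. Across the tested genes, log2 CPM correlated at 0.998 to 0.9987 within a strain and at 0.8819 to 0.8867 between strains. Coding genes of chromosomes XI and XV had a median log2 change of -0.85 (851 genes), against 0.12 for those of the other chromosomes (5002 genes), and synthetase genes on XI and XV are therefore marked below.

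Levels are CPM (read counts scaled to a common library total) on library sizes scaled by the trimmed mean of M values (TMM). Log2 changes are CX01F minus CX01 and were called at an adjusted p under 0.05 in edgeR's quasi-likelihood test across all tested genes. CPM values are shares of a library, so more RNA of a gene per cell and more cells that express it cannot be told apart.

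Synthetase genes of the cytosolic or dual set rose in CX01F almost throughout, and those of the mitochondrial set changed less and in both directions. Of the 22 cytosolic or dual genes, 20 rose, 1 fell and 1 did not pass, with a median log2 change of 1.45, a 2.73-fold difference. Of the 14 mitochondrial genes, 10 rose, 3 fell and 1 did not pass, with a median log2 change of 0.31, a 1.24-fold difference. Over all tested genes 91.4% were called, 45.5% higher and 45.9% lower in CX01F, and the median log2 change was -0.00. A call alone is therefore common in these strains, and the share that rose was 90.9% in the cytosolic or dual set and 71.4% in the mitochondrial set. A change beyond 2-fold, tested with glmTreat, was called upward for 15 of 22 cytosolic or dual genes and 2 of 14 mitochondrial ones, beside 14.8% of all tested genes, and downward for 0 and 1 of them, beside 12.8%. The CX01F libraries all lay above the CX01 libraries for 20 cytosolic or dual genes and 10 mitochondrial genes, beside 45.8% of all tested genes, and below for 1 and 3, beside 46.1%. Library size alone as the scaling shifts all log2 changes by a median of -0.21. The cytosolic or dual set then had 19 higher and 2 lower and the mitochondrial set 8 higher and 4 lower. Over all 6129 tested genes this scaling gave 2221 higher and 3407 lower.

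**Figure D1:**
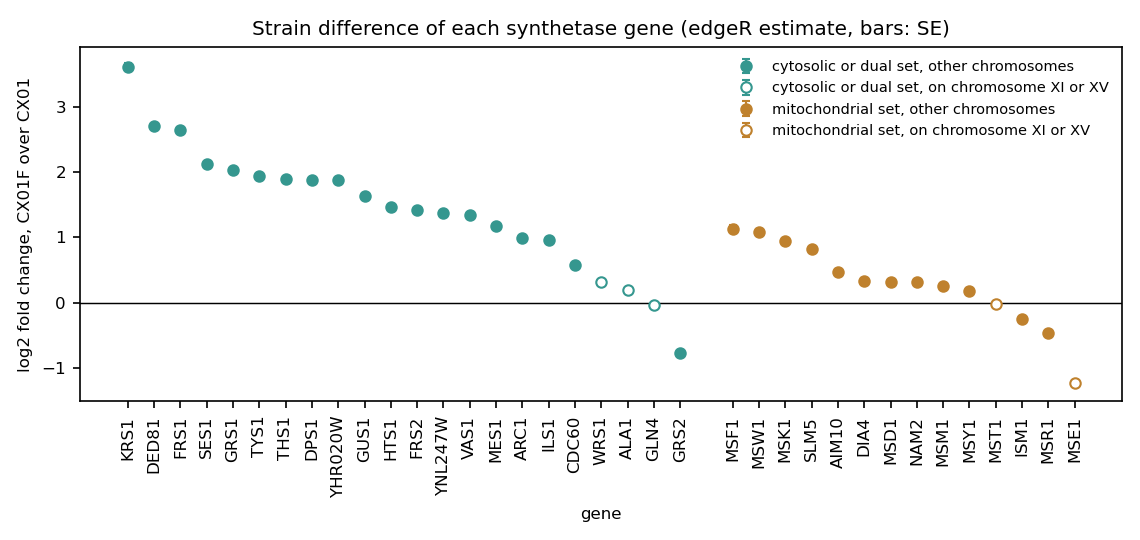
Log2 fold change of CX01F over CX01 for each of the 36 genes (points, edgeR estimate) with its SE (bars, mostly smaller than the points), the cytosolic or dual set on the left and the mitochondrial set on the right. The cytosolic or dual genes run from 3.62 for KRS1 to -0.78 for GRS2 and the mitochondrial genes from 1.13 for MSF1 to -1.24 for MSE1; open points mark genes on chromosomes XI and XV, among which ALA1 turns from 0.20 to -0.01 with library size alone, as MSY1 does among the filled points (0.18 and -0.03).

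Several of these genes carry the core of the Gcn4 site before their start codon. Gcn4 activates genes of amino acid synthesis, and its translation increases when the kinase Gcn2 senses uncharged tRNA. The letters TGACTC were searched on both strands of the 300 bases before each start codon in RefSeq R64. They were found before 10 of 23 cytosolic or dual genes (43.5%), YDR341C included, before 1 of 14 mitochondrial genes (7.14%, MSW1), and before 466 of 6001 coding genes of R64 (7.77%). The 10 include ARC1, whose match begins 6 bases before the start codon and so lies directly against it. The 30 bases around the match are printed for 6 genes of large and small change, 5′ to 3′ on the gene's own strand, with the match in capitals (TGACTC, or GAGTCA where it lies on the opposite strand). The positions are those of R64 and not of the files, whose build is not given in the sources used here.
KRS1, chrIV:525294-525323, plus strand: tgaatgatgaaaTGACTCttaatgaacttc
DED81, chrVIII:143802-143831, minus strand: caagacattcagTGACTCaagcatcgctta
YHR020W, chrVIII:143802-143831, plus strand: taagcgatgcttGAGTCActgaatgtcttg
THS1, chrIX:212283-212312, plus strand: ttactgtttaaaTGACTCttaccttgtgat
ILS1, chrII:84346-84375, minus strand: tcgaaacaatgaTGACTCttaagcatgaaa
ALA1, chrXV:949139-949168, minus strand: gattaaggaactTGACTCtttctttcaaga
DED81 and YHR020W are divergent neighbours, and the stretch printed for them is the same DNA read from either strand, so the 10 genes hold 9 separate matches. The 9 cytosolic or dual genes with a match and a row had a median log2 change of 1.38, and the 13 without a match had 1.47. The letters GATGAG, the core of the PAC element of ribosome biogenesis genes, were found before 5 of the 23 (21.7%), 1 of the 14 (7.14%, MSE1) and 19.1% of the 6001 coding genes. A match is a run of letters and not evidence of binding.

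KRS1, the cytosolic lysyl enzyme, changed most. It had 154, 152 and 155 CPM in CX01F against 13.8, 13.4 and 10.4 CPM in CX01. The libraries of the strains were far apart, with a 12.3-fold rise (log2 change 3.62, SE 0.0638, adjusted p = 5.15e-16). Per kilobase of coding sequence it stood at 86.5 ± 0.974 CPM per kb in CX01F and at 7.06 ± 1.04 CPM per kb in CX01 (SD, n = 3 each), the lowest of the 36 genes in CX01.

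DED81, the asparaginyl enzyme, had 555, 545 and 548 CPM in CX01F against 82.9, 85.7 and 81.6 CPM in CX01, a 6.58-fold rise (log2 change 2.72, SE 0.0283, adjusted p = 3.73e-18). YHR020W, the prolyl enzyme that shares its upstream region, had 274, 273 and 274 CPM in CX01F against 76, 74.8 and 71.3 CPM in CX01. Its rise was 3.69-fold (log2 change 1.89). Both genes of this divergent pair rose without overlap between the strains, as 45.8% of all tested genes lay wholly above in CX01F. DED81 rose by the larger amount.

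Phenylalanyl-tRNA synthetase is built from a pair of subunits, and its genes changed unequally. FRS1, for the beta subunit, had 234, 230 and 237 CPM in CX01F against 36.5, 39.5 and 35.1 CPM in CX01 (log2 change 2.66). FRS2, for the alpha subunit, had 185, 191 and 191 CPM in CX01F against 68.7, 74 and 68.3 CPM in CX01 (log2 change 1.42). Per coding length the FRS1 to FRS2 ratio was 1.07, 1.02 and 1.05 in CX01F and 0.449, 0.451 and 0.435 in CX01. The subunit genes were thus near equal per length in CX01F, while FRS1 was the lower in CX01. The change of the log2 ratio was 1.23 (SE 0.0288), with no overlap between the strains (exact two-sided permutation p = 0.1, the smallest that 3 against 3 libraries can give).

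The 2 glycyl genes moved in opposite directions. GRS1, the dual enzyme, had 597, 605 and 589 CPM in CX01F against 146, 148 and 142 CPM in CX01, a 4.11-fold rise (log2 change 2.04, SE 0.0273, adjusted p = 2.99e-17). GRS2, its paralog from the whole genome duplication, had 70.1, 69.1 and 69.1 CPM in CX01F against 121, 117 and 118 CPM in CX01, and was the only gene of the cytosolic or dual set that fell (log2 change -0.78, SE 0.0267, adjusted p = 9.15e-13). Counts of GRS2 per count of GRS1 were 0.117, 0.114 and 0.117 in CX01F and 0.829, 0.794 and 0.834 in CX01. The paralog was therefore far below its partner in CX01F and close to it in CX01. No run of 50 bases of either coding sequence recurs in another coding gene of R64, the same holds for the other listed members, and none of them overlaps another gene in R64.

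The seryl gene SES1 had 352, 339 and 351 CPM in CX01F against 80.2, 76.9 and 81.7 CPM in CX01 (log2 change 2.13). For TYS1, the tyrosyl enzyme, levels were 178, 173 and 177 CPM in CX01F against 45.7, 43.8 and 48 CPM in CX01 (log2 change 1.94). THS1, the threonyl enzyme, reached 517, 494 and 505 CPM in CX01F, against 138, 137 and 132 CPM in CX01 (log2 change 1.90). These 3 enzymes rose between 3.72-fold and 4.36-fold. DPS1, the aspartyl enzyme, had 699, 700 and 679 CPM in CX01F against 187, 191 and 183 CPM in CX01 (log2 change 1.89), which made it the most abundant member per coding length in CX01F at 414 ± 7.22 CPM per kb (112 ± 2.29 in CX01, SD, n = 3 each). The lowest of the cytosolic or dual set per coding length in CX01F was GRS2 at 37.4 CPM per kb, and the span from highest to lowest was 11.1-fold in CX01F. In CX01 the span was 24.4-fold, and ALA1 was highest at 173 CPM per kb.

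GUS1 and MES1, the glutamyl and methionyl enzymes, form a complex with Arc1. GUS1 had 373, 363 and 370 CPM in CX01F against 117, 125 and 115 CPM in CX01 (log2 change 1.63), and MES1 had 210, 210 and 209 CPM in CX01F against 92.1, 91.4 and 95.4 CPM in CX01 (log2 change 1.17). ARC1 had 265, 269 and 264 CPM in CX01F against 132, 132 and 135 CPM in CX01 (log2 change 1.00). All 3 genes of the complex rose, ARC1 by the least. Counts of ARC1 per count of MES1 were 1.26, 1.28 and 1.26 in CX01F and 1.44, 1.45 and 1.42 in CX01, and per count of GUS1 they were 0.712, 0.741 and 0.712 in CX01F and 1.13, 1.06 and 1.17 in CX01. Both ratios were lower in every CX01F library (exact two-sided permutation p = 0.1 for each).

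All 5 enzymes listed as dual here were called higher. GUS1 was listed as cytosolic, and whether its product also serves mitochondria was not examined. Besides GRS1, HTS1, the histidyl enzyme, had 180, 180 and 183 CPM in CX01F against 68.9, 65.3 and 62 CPM in CX01 (log2 change 1.47). YNL247W, the cysteinyl enzyme, had 186, 187 and 183 CPM in CX01F against 71.4, 70.1 and 72.5 CPM in CX01 (log2 change 1.38). VAS1, the valyl enzyme, had 521, 524 and 502 CPM in CX01F against 204, 204 and 201 CPM in CX01 (log2 change 1.35). These 3 rose by amounts between those of MES1 and GUS1. ALA1, the alanyl enzyme and the fifth of them, lies on chromosome XV. It had 571, 580 and 557 CPM in CX01F against 494, 509 and 486 CPM in CX01, a log2 change of 0.20 that passed the test with TMM scaling (adjusted p = 9.14e-06) but was -0.01 with library size alone (adjusted p = 0.742, the highest of 12 alternatives, the lowest being 5.5e-11). The 12 leave out glmTreat, which asks for a change beyond 1.5-fold or 2-fold and gave ALA1 an adjusted p of 1 for both.

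Apart from those of GRS2 and ARC1, the changes of under 1 log2 unit in the cytosolic or dual set were those of 2 branched-chain enzymes and of the genes on chromosome XV. ILS1, the isoleucyl enzyme, had 571, 576 and 555 CPM in CX01F against 295, 295 and 289 CPM in CX01 (log2 change 0.95). CDC60, the leucyl enzyme, had 427, 435 and 417 CPM in CX01F against 282, 289 and 288 CPM in CX01 (log2 change 0.57). Both rose without overlap between the strains, which held upward for 45.8% of all tested genes. WRS1, the tryptophanyl enzyme, on XV, had 123, 122 and 122 CPM in CX01F against 97.7, 97.9 and 97.6 CPM in CX01 (log2 change 0.32). GLN4, the glutaminyl enzyme, also on XV, had 235, 229 and 230 CPM in CX01F against 238, 244 and 235 CPM in CX01, and its libraries overlapped (log2 change -0.04, SE 0.0259, adjusted p = 0.121). GLN4 was called lower without CX01 replicate 3 (adjusted p = 0.0453), with a minimum count of 50 (0.0462) and with library size alone (3.91e-07), over a range of 3.91e-07 to 0.298 in 12 alternatives other than glmTreat.

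**Figure D2:**
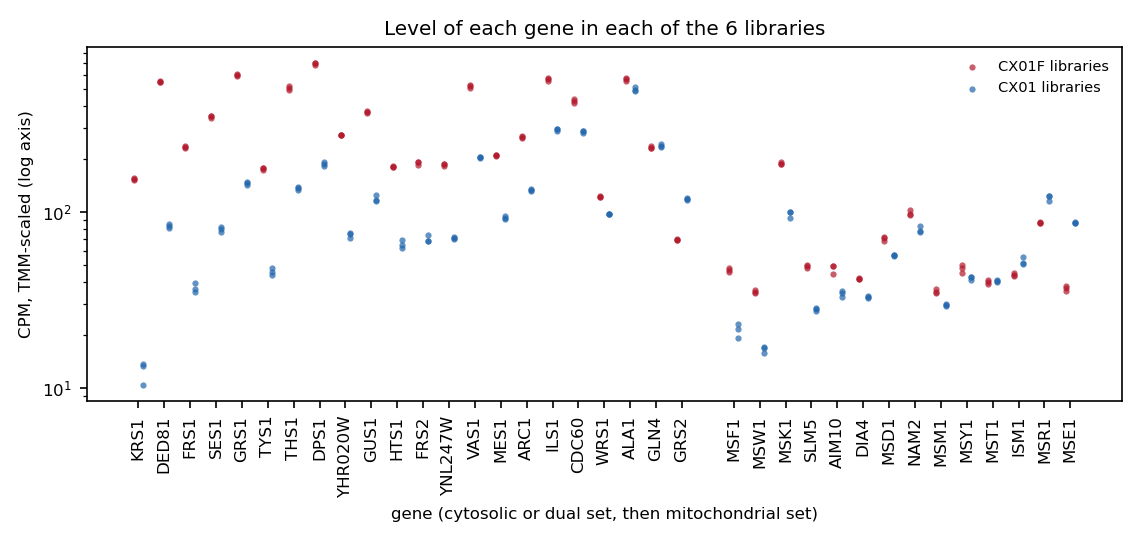
CPM of each of the 36 genes on a log axis, with 3 points for the CX01F libraries at the left and 3 for the CX01 libraries at the right of each gene name. The libraries of a strain lie close together, KRS1 stands lowest in CX01 at 10.4 to 13.8 CPM, and the strains overlap for GLN4 and MST1.

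The members on chromosomes XI and XV were set beside the other genes of those chromosomes. The median log2 change of the coding genes was -0.86 on XV and -0.82 on XI, and between 0.02 and 0.26 on the other 14 chromosomes. Of the coding genes of XI and XV, 16.3% were called higher and 79.6% lower in CX01F, against 51.8% higher and 39.3% lower elsewhere. ALA1, WRS1 and GLN4 lay above the XV median by 1.06, 1.18 and 0.82 on the log2 scale, and MST1, the mitochondrial member on XI, lay above the XI median by 0.80. MSE1 on XV lay below its median. Taken relative to the median of each gene's own chromosome, the cytosolic or dual set had a median log2 change of 1.34 and the mitochondrial set 0.18. Without the members on XI and XV the cytosolic or dual set had 18 higher and 1 lower of 19, with a median log2 change of 1.63. The mitochondrial set then had 10 higher and 2 lower of 12, with a median of 0.33. The part of the chromosomes in these differences was not tested.

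**Figure D3:**
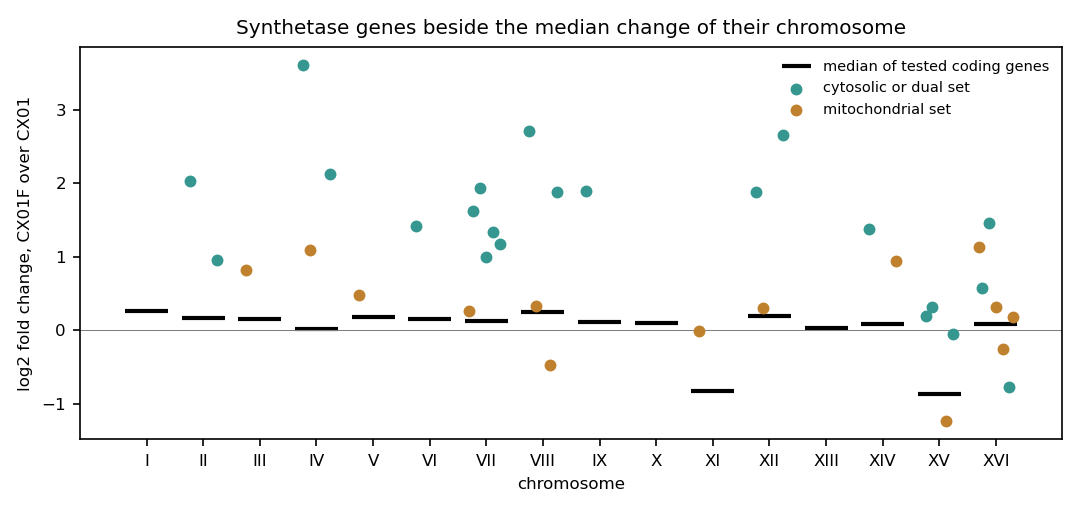
Log2 fold change of CX01F over CX01 for each synthetase gene (points) by chromosome, with the median of the tested coding genes of that chromosome (black bars). The bars of XI (-0.82) and XV (-0.86) lie below the rest, and on XV the cytosolic or dual genes ALA1, WRS1 and GLN4 lie above the bar and MSE1 below it, while on XI the mitochondrial MST1 lies above its bar by 0.80.

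Among the mitochondrial enzymes the largest rises were in MSF1, MSW1 and MSK1. MSF1, the phenylalanyl enzyme, had 47.8, 45.4 and 46.7 CPM in CX01F against 21.5, 23 and 19.2 CPM in CX01 (log2 change 1.13, SE 0.0539, adjusted p = 4.12e-11). MSW1, the tryptophanyl enzyme, had 35.3, 36.2 and 34.6 CPM in CX01F against 17.2, 15.8 and 16.9 CPM in CX01 (log2 change 1.09). These were the 2 mitochondrial genes called beyond 2-fold upward. MSK1, the lysyl enzyme, whose precursor also takes part in import of a cytosolic lysine tRNA into mitochondria, had 191, 188 and 186 CPM in CX01F against 99.7, 101 and 92.5 CPM in CX01 (log2 change 0.95). It was the most abundant mitochondrial member per coding length in CX01F, at 109 CPM per kb against a median of 31.7 for the set.

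Asparaginyl SLM5 had 48.2, 50 and 49.6 CPM in CX01F against 28.5, 28 and 27.3 CPM in CX01 (log2 change 0.82). For AIM10, which resembles prolyl enzymes, the values were 49.5, 44.4 and 49.4 CPM in CX01F against 34.7, 35.5 and 32.9 CPM in CX01 (log2 change 0.48). The next 5 genes, the seryl DIA4, aspartyl MSD1, leucyl NAM2, methionyl MSM1 and tyrosyl MSY1, had log2 changes of 0.34, 0.31, 0.31, 0.26 and 0.18. All 5 were called higher with TMM scaling, but with library size alone MSM1 was at 0.05 (adjusted p = 0.215) and MSY1 at -0.03 (adjusted p = 0.549), and over 13 alternatives other than glmTreat the adjusted p ran from 1.06e-07 to 0.215 for MSM1 and from 0.000186 to 0.549 for MSY1. NAM2, which is also needed for splicing of mitochondrial introns, had 97.5, 103 and 95.5 CPM in CX01F against 77.1, 83.4 and 77.9 CPM in CX01.

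In all, 3 mitochondrial enzymes fell. MSE1, the glutamyl enzyme, on chromosome XV, had 37.1, 35.6 and 37.9 CPM in CX01F against 87.6, 87 and 86.3 CPM in CX01, 2.36-fold lower in CX01F (log2 change -1.24, SE 0.0315, adjusted p = 2.79e-14). It lay 0.37 below the XV median on the log2 scale (difference -0.37). MSR1, the arginyl enzyme and the paralog of YDR341C, had 86.2, 87.3 and 86.7 CPM in CX01F against 123, 123 and 115 CPM in CX01 (log2 change -0.47, adjusted p = 1.94e-09). ISM1, the isoleucyl enzyme, had 44.8, 43.4 and 43.7 CPM in CX01F against 50.8, 51 and 55.2 CPM in CX01 (log2 change -0.25, adjusted p = 2.15e-05). In all 3 the CX01F libraries lay wholly below the CX01 libraries, as they did for 46.1% of all tested genes. MST1, the threonyl enzyme, on XI, had 39, 40.1 and 41.3 CPM in CX01F against 40, 41.2 and 40.5 CPM in CX01, which overlap (log2 change -0.02, adjusted p = 0.685).

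For 13 amino acids a gene listed as cytosolic and a gene listed as mitochondrial could be set side by side within each library. This takes the scaling of the library out of the comparison. The ratio of cytosolic to mitochondrial counts was higher in every CX01F library than in every CX01 library for 12 of the 13 pairs and lower for 1. Separation alone is common in these strains, since 45.8% of single tested genes lay wholly above and 46.1% wholly below. The share for ratios of other gene pairs was not computed. The median change of the log2 ratio was 1.57. The largest was GUS1 to MSE1, at 10, 10.2 and 9.77 in CX01F and 1.33, 1.43 and 1.33 in CX01 (log2 change of the ratio 2.87, SE 0.0386), with MSE1 on XV. Per coding length the glutamyl ratio was 7.61, 7.71 and 7.40 in CX01F, and the genes were near equal in CX01, at 1.01, 1.09 and 1.01.

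KRS1 to MSK1 had the next largest change, with ratios of 0.808, 0.808 and 0.831 in CX01F and 0.138, 0.134 and 0.112 in CX01 (log2 change of the ratio 2.68, SE 0.0923). Lysine was the only amino acid of the 13 for which the mitochondrial gene had the more counts, per coding length too, and it did so in all 6 libraries. THS1 to MST1 (with MST1 on XI), DED81 to SLM5, SES1 to DIA4, TYS1 to MSY1, DPS1 to MSD1 and YHR020W to AIM10 had log2 changes of the ratio of 1.91, 1.90, 1.79, 1.76, 1.57 and 1.41. ILS1 to ISM1 was at 1.20 and MES1 to MSM1 at 0.92.

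The ratios of FRS2 to MSF1 and CDC60 to NAM2 changed least, by 0.29 (SE 0.0618) and 0.26 (SE 0.0331) on the log2 scale. The phenylalanyl value rests on the subunit taken, since with FRS1, the other subunit gene, the ratio to MSF1 changed by 1.52 (SE 0.0371). The ratio of WRS1, on XV, to MSW1 went the other way, at 3.49, 3.36 and 3.52 in CX01F and 5.69, 6.2 and 5.77 in CX01 (log2 change of the ratio -0.77, SE 0.0436). For each of the 13 pairs the exact two-sided permutation test of 3 against 3 libraries gave p = 0.1, the smallest it can give, and 0.1 after Benjamini-Hochberg adjustment, so this test cannot pass 0.05 for a single pair. Without the 3 pairs that have a gene on XI or XV, all of the other 10 were higher in CX01F, with a median of 1.49.

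**Figure D4:**
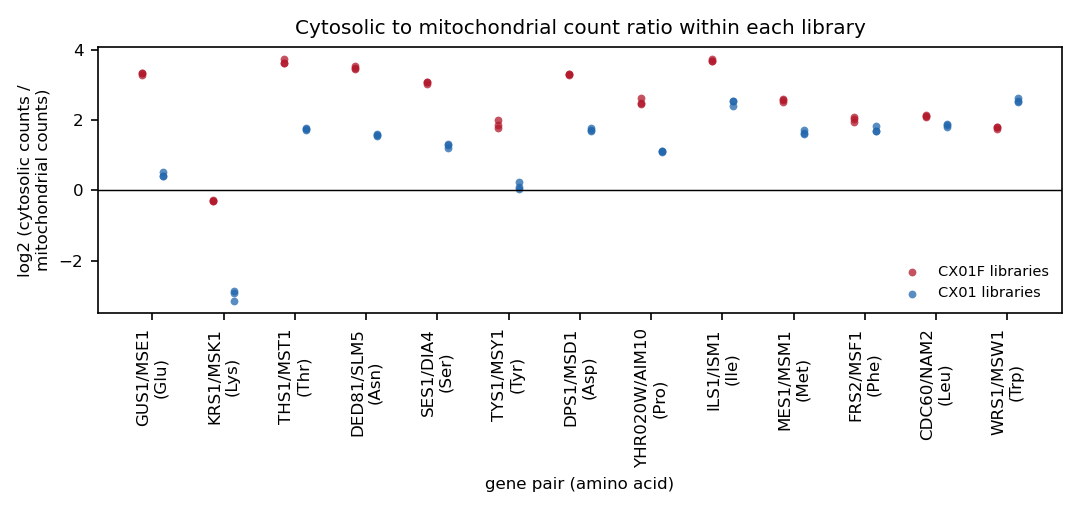
Log2 of the count of the cytosolic gene over that of the mitochondrial gene for the same amino acid, in each CX01F library (left points) and each CX01 library (right points), for 13 pairs ordered by the change of the ratio. The CX01F points lie above the CX01 points for 12 pairs and below them for WRS1/MSW1, and the lysine pair lies below 0 in all 6 libraries.

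Summed over its 22 genes, the cytosolic or dual set took 7430 ± 56.7 CPM in CX01F against 3087 ± 37.8 CPM in CX01, 2.41-fold more (SD, n = 3 each). The 14 mitochondrial genes summed to 869 ± 3.38 CPM in CX01F against 739 ± 14 CPM in CX01, 1.18-fold more. As a share of all counts, with no TMM scaling, the cytosolic or dual genes held 0.696%, 0.692% and 0.686% in CX01F and 0.333%, 0.335% and 0.327% in CX01. The mitochondrial genes held 0.0811%, 0.081% and 0.0806% in CX01F and 0.0801%, 0.0806% and 0.0775% in CX01, and on this scale the strains overlapped.

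Genes around tRNA charging were taken from lists of pathway members, whose counts stand beside 45.5% of all tested genes called higher and 45.9% called lower. Counts given below for library size alone stand beside 2221 genes higher and 3407 lower of all 6129. Those from the fit without XI and XV stand beside 2344 genes higher and 2440 lower among the genes left in that fit, which are fewer than 6129. In the general control pathway, through which uncharged tRNA raises translation of GCN4, 3 of 5 genes were called higher and 2 lower (60% and 40%). GCN4 mRNA had 1797, 1729 and 1803 CPM in CX01F against 1033, 991 and 1097 CPM in CX01 (log2 change 0.77, SE 0.0361, adjusted p = 3.39e-11). GCN1 and GCN20, which act with Gcn2 at the ribosome, had log2 changes of 0.88 and 0.70. GCN2 itself and GCN3, a subunit of initiation factor eIF2B, had log2 changes of -0.38 and -0.32, with GCN3 on XI. Translation of GCN4 is not measured by these counts.

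Of 8 tRNA delivery and elongation genes, 7 rose and 1 fell (median log2 change 0.58). YEF3, an elongation factor of fungi, averaged 2435 ± 11.4 CPM in CX01F against 425 ± 44.2 CPM in CX01 (log2 change 2.52), and TUF1, the mitochondrial elongation factor Tu, on XV, at 407 ± 2.58 CPM in CX01F against 565 ± 0.626 CPM in CX01 (log2 change -0.47). Mitochondrial translation factors, which share TUF1 and MEF1 with that list, had 4 higher and 5 lower of 10 (median log2 change -0.21). With library size alone they had 1 higher and 6 lower (median -0.42). The fit without XI and XV, which holds neither TUF1 nor IFM1, gave 2 higher and 4 lower (median -0.09). Their largest called rise and fall at 10 CPM or more were in MEF1 at 0.32 and in IFM1, the mitochondrial initiation factor 2, on XV, at -1.95. In yeast mitochondria glutamine tRNA first carries glutamate, which the amidotransferase of HER2, PET112 and GTF1 converts to glutamine on the tRNA. The log2 changes of these genes were 0.23, -0.21 and -0.69. All 3 were called with TMM scaling, and with library size alone HER2 was no longer called. Initiator methionine genes had 6 higher and 1 lower of 8 (median log2 change 0.44), or 5 higher and 3 lower with library size alone (median 0.23), with SUI2, the alpha subunit of eIF2, at a log2 change of 1.00 and GCD1, on XV, at -0.32.

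Genes of tRNA maturation and modification went both ways. In maturation 10 of 20 rose and 8 fell (50% and 40%, near the shares of all tested genes, median log2 change 0.10). With library size alone 6 rose and 10 fell (median -0.11), beside 2221 and 3407 of all 6129 tested genes. Its largest called rise and fall at 10 CPM or more were in POP1, a subunit of RNase P, at 1.00 and in TPT1, the tRNA 2′-phosphotransferase, on XV, at -1.89. In modification 36 of 58 rose and 18 fell (62.1% and 31%, beside 45.5% and 45.9% of all tested genes, median log2 change 0.32). With library size alone 31 rose and 25 fell (median 0.11), beside the same 2221 and 3407 of all tested genes. Its largest called rise and fall at 10 CPM or more were in TYW1, of wybutosine synthesis, at 1.37 and in TAD2, a subunit of the tRNA adenosine deaminase, at -2.15. Of 5 genes that clear peptides or D-amino acids from tRNA or act in quality control, 2 rose and 3 fell, with DTD1, the D-aminoacyl-tRNA deacylase, at 1.24 and PTH4, on XV, at -2.83. PTH4 was low in CX01F, at 5.24, 5.11 and 5.49 CPM, against 36.5, 36.5 and 39.7 CPM in CX01.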

How the data were processed

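The authors deposited raw read counts per gene for 6 libraries. Tools named, per the submitters' processing notes, are featureCounts, Subread 1.4.6, TopHat2 2.0.12 and Cufflinks, without their roles. The genome build, annotation, strand setting and treatment of multi-mapped reads are not given in the sources used here. A row without a gene name (0.00877% to 0.00916% of counts in CX01F, 0.0392% to 0.044% in CX01) was left out. Counts carry no molecular identifiers, and the labels call the replicates biological without naming a batch, so strain and handling cannot be told apart.

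Counts were filtered with filterByExpr (minimum count 10, minimum total 15), scaled by TMM and tested with edgeR 4.0.16 in R 4.3.3 (quasi-likelihood test with only the strain as a term and 4 residual degrees of freedom, two-sided, Benjamini-Hochberg over 6129 genes). SE is the log2 change divided by the square root of F. Ratios of pairs were tested by exact permutation. Names, chromosomes, coding lengths and sequences come from RefSeq R64. The fit was run on simulated counts in which few genes changed, unlike these strains, so that run does not test the scaling or calls in this setting. The alternatives were DESeq2 1.42.0, other scalings and filters, glmTreat, the replicate block, each library left out and chromosomes XI and XV left out. The members, gene lists, pairs and motifs were chosen with earlier results of these data known, so their counts are no independent evidence. The genes named are all members with a row, all general control genes, and of each other list the largest called rise and fall at 10 CPM or more. This minimum applies to the mean over both strains, so a gene can lie below it in a strain. PET112 was added to complete its complex.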

Additional observations from a re-analysis of the deposited data

How the results depend on the processing

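Counts and medians below are for the cytosolic or dual set and the mitochondrial set. Library size alone gave 2 lower and a median log2 of 1.24 for the first, with 2221 genes higher and 3407 lower over all. The second had a median of 0.10, and the folds of the summed CPM were 2.08 and 1.02. ALA1 was at -0.0095, MSY1 at -0.0268 and the median of tRNA maturation genes at -0.11. This scaling shifts all genes by a median of -0.21. A minimum count of 50 gave 2 lower and 1.43 for the first, with 2722 genes higher and 2742 lower over all. The fit without chromosomes XI and XV gave medians of 1.52 and 0.21, where MSY1 lost its call (adjusted p = 0.155, range 0.000186 to 0.549 over 13 alternatives other than glmTreat). Against a 1.5-fold change, glmTreat called 1472 genes higher and 1414 lower, and 4 higher and 1 lower mitochondrial genes. Against 2-fold it called 905 higher and 784 lower, 2 higher and 1 lower mitochondrial genes, and 0 lower cytosolic or dual genes. These are stricter questions by construction. Leaving out 1 library gave 1 to 2 lower and medians of 1.42 to 1.46 in the first set. Over all, 2734 to 2794 genes were then higher and 2767 to 2823 lower. The second cytosolic or dual gene called lower was GLN4, without CX01 replicate 3.

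Some alternatives were added after seeing the data. With the members on XI and XV left out, the median of the first set was 1.63, the folds of the sums 2.89 and 1.30, and the median of the pairs 1.49. Relative to the chromosome medians the sets were at 1.34 and 0.18. The cause of these shifts beyond the construction of each alternative was not tested. With CPM plus 1, or with FRS1 in place of FRS2, the median of the pairs was 1.57. DESeq2 called 2766 genes higher and 2787 lower and, as with the replicate block, 20 higher and 1 lower, and 10 higher and 3 lower, in the sets. With the replicate block 2797 genes were higher and 2822 lower. Same-numbered libraries deviated together at correlations of 0.0242, 0.0785 and 0.0207, the highest for each library among the other strain's, a hint from the data and too small to show pairs. Depth does not limit these genes, since the lowest, KRS1 in CX01, has at least 627 counts a library.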

Other observations

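The enzymes fall into class I and class II by the fold of their catalytic domain. The choice of genes did not use this property, and it was looked at after the values were seen. Class was assigned by the amino acid, so both phenylalanyl subunit genes, FRS1 and FRS2, were counted in class II. In the cytosolic or dual set, the 12 class II genes had a median log2 change of 1.89 and the 9 class I genes 1.17. Without chromosomes XI and XV these medians were 1.90 over 11 genes and 1.35 over 7. The 4 largest rises, KRS1, DED81, FRS1 and SES1, were all counted in class II, FRS1 as a subunit gene, and the largest class I rise was in TYS1 at 1.94. In the mitochondrial set the medians were 0.48 over 7 class II genes and 0.18 over 7 class I genes, and the 3 genes that fell, MSE1, MSR1 and ISM1, are class I. These are descriptions of the genes measured, with no test, and GRS2, a class II gene, fell.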
